A study of Homo sapiens with 6 samples.

Results

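HCT116 cells that had received one of 2 small interfering RNAs against the same long noncoding RNA, siH19-2 or siH19-1, were compared directly. The comparison used the 2 arrays titled siH19-2 and the 2 titled siH19-1, 4 of the 6 arrays of the series, and tested 24721 of 67528 transcript clusters, the gene-level units of the array, namely those that reached 5 on the log2 scale on 2 or more of the 6 arrays. HCT116 is an established human colon cancer line, and the series measured 3 groups of 2 biological replicates each. The groups were cells given a control siRNA, siH19-1 or siH19-2, each at 50 nM for 48 h with a lipid transfection reagent, so that every group carried an siRNA and the reagent and no untreated cells were measured. The sequence of neither siRNA, and the place in H19 that each is directed at, were among the labels.

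H19 is a maternally expressed, imprinted RNA of chromosome 11 that lies next to IGF2, is abundant in the embryo and is silent in most adult tissues but present in many tumours. Part of it is cut out to give microRNA miR-675, and H19 has also been described as binding let-7. An siRNA is loaded into an Argonaute protein and guides the cleavage of RNA that pairs along its whole length, while RNAs that pair only with its seed can be repressed as microRNA targets are. The comparison asks what separates cells given 2 siRNAs that are directed at the same RNA. Both mature products of the miR-675 hairpin are shown since reported targets of this microRNA were among the genes examined, with the seed, bases 2 to 8, in capitals (RefSeq, GRCh38.p14, minus strand of chromosome 11):
hsa-miR-675-5p, chr11:1996800-1996822: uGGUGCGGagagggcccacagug
hsa-miR-675-3p, chr11:1996768-1996787: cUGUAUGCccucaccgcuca

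H19 itself did not separate the groups. The cluster annotated to both H19 and MIR675 had a log2 signal of 4.90 and 4.99 in the siH19-1 arrays and of 4.95 and 5.02 in the siH19-2 arrays, and the control arrays stood at 4.82 and 5.02. The groups overlapped and neither siRNA lay below the control. The difference, siH19-2 minus siH19-1, was 0.04 (SE 0.11, 95% interval -0.24 to 0.32, limma adjusted p = 0.820), which is a fold between 0.849 and 1.24. Its sign turned when the arrays were quantile-normalized again (-0.011), were centred on their median (-0.03) or lacked siH19-1 replicate 1 (-0.005). The arrays therefore hold no measurement of H19 being lowered, by either siRNA, and siH19-1 and siH19-2 stand below for arrays labelled so. As a scale for these levels, the median was 3.00 over 23 background probe rows. The median of all transcript clusters ran from 4.1 to 4.2 over the arrays, and that of tested clusters from 6.78 to 6.92. H19 stood at percentile 64.6 of all clusters. Its group means, 4.92 to 4.985, lay below the filter of 5. It met the filter through siH19-2 replicate 2 and control replicate 2, each at 5.02. At a signal this low, flat values do not show whether either siRNA lowered H19.

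Across tested clusters, the arrays correlated at 0.995 within siH19-1, at 0.994 within siH19-2 and at 0.976 to 0.981 between them. Of 14 markers of colon epithelium 9 had a mean log2 signal of at least 5, led by the keratin KRT8 at 13.8. Markers of fibroblasts, endothelium, erythroid cells and hepatocytes were all below 5 on average. Among 8 leukocyte markers found only CD68, a lysosomal protein, was at 5 or above, with a mean of 7.14. The linear signals of that list were summed, and the log2 of the sum was 8.26 to 8.42 with siH19-1 and 7.58 to 7.69 with siH19-2. SYT1 of the neuronal list and ACTC1 of the muscle list were the other 2 markers at 5 or above. The part of these markers in the differences below was not tested. In RNA from whole cultures, fewer cells of a kind and less RNA per cell cannot be told apart.

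Between both siRNAs, 4731 clusters differed, 19.1% of those tested (limma, two-sided, Benjamini-Hochberg adjusted p under 0.05 over all tested clusters). They divided into 2543 higher with siH19-2 (10.3%) and 2188 lower (8.85%). Scaling the arrays to the control probe rows called 5976 clusters and moved the share that was higher from 53.8% to 71.5%, with the median log2 difference of all tested clusters at 0.18 in place of 0.06. These rows are all those that are not transcript clusters. Most were exon probe sets (1437) and numbered rows (1343), with mean differences of -0.17 and -0.098. The 155 ERCC spike-in rows differed by -0.002, the 23 background rows by 0.10 and 37 other rows by 0.33. The ERCC rows were dim, with a median level of 4.07, so their small difference is no check of the scale of brighter rows. The scaling thus rests mainly on exon and numbered rows. The majority turned the other way under the other scalings, with 2195 higher and 2596 lower (45.8% higher) after renewed quantile normalization and 2125 higher and 2711 lower (43.9% higher) after centring. The fold was at least 1.5 for 3554 of the called clusters, at least 2 for 1175 (617 higher and 558 lower) and at least 4 for 80 (35 higher and 45 lower). Every called cluster had no overlap between the groups, but so did 63.8% of all tested clusters. With 2 arrays a group the fit had 2 residual degrees of freedom. Without any 1 of the 4 arrays limma called 0 clusters, with 6073 to 6837 at an unadjusted p under 0.05. With the control arrays kept in the fit to steady the spread, 517 clusters were called without siH19-1 replicate 2, 574 without siH19-2 replicate 1, 756 without siH19-1 replicate 1 and 1319 without siH19-2 replicate 2.

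**Figure D1:**
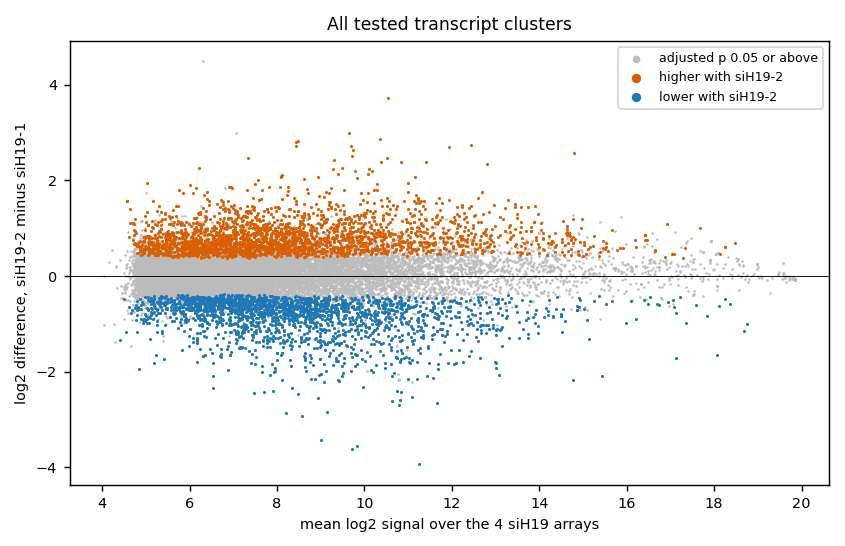
Each point is a tested transcript cluster, with its mean log2 signal over the 4 siH19 arrays on the x axis and the log2 difference, siH19-2 minus siH19-1, on the y axis. The 2543 clusters in orange were higher and the 2188 in blue lower with siH19-2 at a limma adjusted p under 0.05. Calls lie on both sides of 0 over the whole range of signal.

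Counting each annotated gene once, by its brightest cluster, 10.2% of 11179 genes were higher and 12.9% lower with siH19-2, around a median of -0.005 (0.12 when scaled to the control probe rows). These shares are the background for the counts of gene groups below, and a group with shares near them says nothing about that group. The groups were 42 lists of 1201 genes, of which 915 were tested. With 1 array left out and the control arrays in the fit, 6 to 11 proteasome and 6 to 13 replication genes passed, 4 to 8 genes of endoplasmic reticulum to Golgi traffic and at most 6 in any other list. Values given for single arrays are log2 signals, and a gene called higher or lower by a value differed by that much on the log2 scale, siH19-2 against siH19-1 unless the control is named.

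The gene furthest above its siH19-1 level was ARRDC3 on chromosome 5, an arrestin-domain adaptor in the ubiquitination of membrane proteins. It stood at 9.07 and 8.30 with siH19-1, at 12.70 and 12.13 with siH19-2 and at 8.93 and 8.21 in the control arrays. Both siH19-2 arrays were far above the other 4, which overlapped one another. The log2 difference was 3.73 (SE 0.33, 95% interval 2.87 to 4.59, limma adjusted p = 0.00955), a fold of 13.3. PRSS8 on chromosome 16, which encodes the epithelial membrane protease prostasin, read 8.21 and 8.09 with siH19-1 and 11.07 and 11.20 with siH19-2 (difference 2.98, SE 0.11, limma adjusted p = 0.00936). Its control values of 8.75 and 8.65 lay between the groups, closer to siH19-1.

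SS18, a subunit of the SWI/SNF chromatin remodelling complex, read 8.83 and 9.0 with siH19-1 and 11.84 and 11.73 with siH19-2 (difference 2.87, SE 0.12, limma adjusted p = 0.00936). Here the control arrays, at 11.70 and 11.56, were beside siH19-2, and siH19-1 was the group that stood apart. FRK, a Src-family tyrosine kinase of epithelial cells on chromosome 6, rose stepwise from 6.19 and 6.13 in the control to 7.05 and 7.11 with siH19-1 and 10.10 and 9.70 with siH19-2 (difference between siRNAs 2.82, SE 0.16, limma adjusted p = 0.00936). No array of a group overlapped another group. NR4A2, an orphan nuclear receptor of the immediate-early response, read 8.33 and 8.31 with siH19-1 and 11.1 and 11 with siH19-2, against 9.58 and 8.85 in the control (difference 2.73, SE 0.10, limma adjusted p = 0.00936). PTBP2, the neuronal paralog of the splicing repressor PTBP1, read 8.47 and 8.37 with siH19-1 and 11.13 and 10.99 with siH19-2, against 9.18 and 9.15 in the control (difference 2.64, SE 0.11, limma adjusted p = 0.00936). For both genes the control arrays lay between the siRNAs.

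The next 9 genes in order of rise were 2.19 to 2.50 higher on the log2 scale, with limma adjusted p between 0.00936 and 0.0135. They were KLK6, a secreted kallikrein protease, PPFIBP1, a liprin, PIP5K1A, a phosphoinositide kinase, GPCPD1, a glycerophosphocholine phosphodiesterase, CYP24A1, the mitochondrial enzyme that degrades active vitamin D, TFPI, the inhibitor of tissue factor, ENPP4, a membrane ectoenzyme, RBMS2, an RNA-binding protein, and SNX6, a sorting nexin of the retromer. Of these 9, CYP24A1 varied most between replicates of siH19-1, at 11.25 and 12.02, and still lay wholly below siH19-2 at 13.83 and 14.14.

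The gene furthest below was LRRC59 on chromosome 17, an endoplasmic reticulum membrane protein that binds ribosomes. It read 13.12 and 13.31 with siH19-1, 9.21 and 9.34 with siH19-2 and 12.86 and 12.61 in the control. The siH19-2 arrays alone were low. The difference was -3.94 (SE 0.12, 95% interval -4.26 to -3.62, limma adjusted p = 0.00936), a fold of 15.3. A separate, dim cluster with the same symbol differed by 0.38 and did not pass (limma adjusted p = 0.119), so the statement holds for the bright cluster. IDH3A on chromosome 15, the catalytic subunit of the NAD-dependent isocitrate dehydrogenase of the citrate cycle, read 11.60 and 11.62 with siH19-1, 7.71 and 8.41 with siH19-2 and 10.86 and 10.82 in the control (difference -3.55, SE 0.25, limma adjusted p = 0.00936). The siH19-2 replicates lay further apart than those of the other groups, and both were far below the other 4 arrays.

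MYBL2, the B-Myb transcription factor that switches on genes of the late cell cycle, read 9.54 and 9.73 with siH19-1 and 6.57 and 6.98 with siH19-2, against 10.10 and 9.94 in the control (difference -2.86, SE 0.17, limma adjusted p = 0.00936). MLEC, a lectin of the endoplasmic reticulum, read 12.10 and 12.16 with siH19-1 and 9.39 and 9.47 with siH19-2, against 11.39 and 11.18 in the control (difference -2.70, SE 0.10, limma adjusted p = 0.00936). In both, siH19-2 was low and the groups were far apart. TMED2, a p24-family cargo receptor of transport vesicles, read 13.03 and 12.96 with siH19-1 and 10.03 and 10.63 with siH19-2, against 13.43 and 13.26 in the control (difference -2.67, SE 0.22, limma adjusted p = 0.00955). CARM1, an arginine methyltransferase that acts on histones and coactivators, read 11.87 and 11.99 with siH19-1 and 9.03 and 9.61 with siH19-2, against 11.89 and 11.65 in the control (difference -2.61, SE 0.22, limma adjusted p = 0.00955). The siH19-1 arrays of these 2 genes lay next to or among the control arrays.

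The next 9 genes in order of fall were 2.15 to 2.54 lower (limma adjusted p between 0.00936 and 0.0113). They were C11orf24, DSG2, a desmosomal cadherin, SEPTIN11, a septin of the cytoskeleton, RRAS, a Ras-related GTPase, CPA4, a carboxypeptidase, SLC25A39, a mitochondrial glutathione carrier, CCNF, the cyclin that serves as a substrate receptor of an SCF ubiquitin ligase, ATMIN, a partner of the checkpoint kinase ATM, and GLO1, which detoxifies methylglyoxal. CPA4 read 9.48 and 8.75 with siH19-1 and 6.76 and 6.65 with siH19-2. With 1 array left out at a time, its difference ran from -2.775 to -2.045. Because these genes were chosen as the largest called differences without overlap, such a check favours them.

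**Figure D2:**
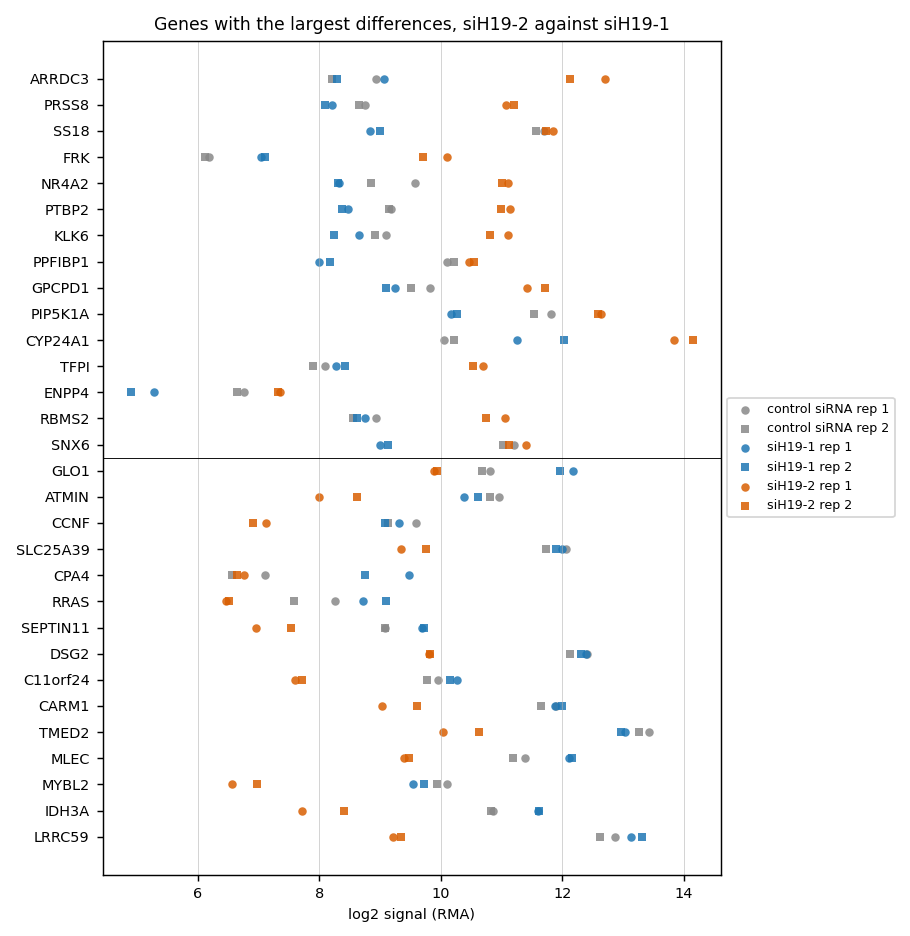
Log2 signal of the 15 genes furthest above (upper block) and the 15 furthest below (lower block) with siH19-2 against siH19-1, with a mark for each of the 6 arrays. The 30 genes were chosen so that orange siH19-2 marks and blue siH19-1 marks do not overlap, which also held for 63.8% of all tested clusters. The mean of the grey control marks is nearer to the blue marks for most genes and nearer to the orange ones for SS18, PPFIBP1, PIP5K1A, ENPP4, SNX6, CPA4 and GLO1.

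Set beside the control arrays, which were no part of the comparison, called clusters more often had a control level nearer to siH19-1. Which siRNA a difference came from was not tested. Of the 4731 called clusters, the control mean was nearer to siH19-1 for 3539 (74.8%) and nearer to siH19-2 for 1192 (25.2%), where among all tested clusters these shares were 61.0% and 38.3%. The control mean lay between both siRNAs for 2840 of the called clusters. In a limma fit of all 6 arrays, 1537 clusters (6.22%) differed between siH19-1 and the control and 5203 (21%) between siH19-2 and the control. Both comparisons use the same 2 control arrays. Of the 15 largest rises, 12 were called higher with siH19-2 than in the control, while with siH19-1 6 were called lower and 2 higher than in the control. SS18 was 2.71 below the control with siH19-1 (limma adjusted p = 0.00728) and 0.15 above it with siH19-2 (0.431). PPFIBP1 was 2.08 below with siH19-1 (limma adjusted p = 0.00728) and 0.34 above with siH19-2 (0.0957), and SNX6 2.04 below and 0.15 above. Of the 15 largest falls, 14 were called lower with siH19-2 than in the control and 0 with siH19-1, where 3 were called higher. CPA4 was the gene not called with siH19-2, at -0.13, and it was 2.28 above the control with siH19-1 (limma adjusted p = 0.0159).

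**Figure D3:**
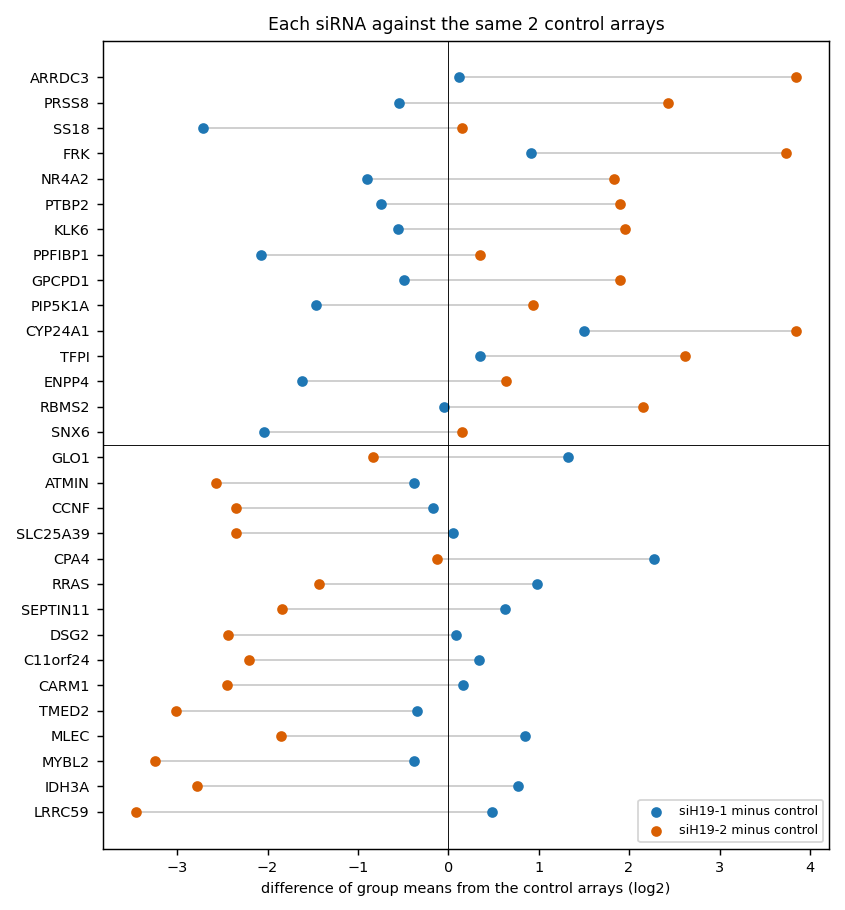
For the same 30 genes, the difference of each siRNA's mean from the mean of the same 2 control arrays (x axis, log2). A grey line joins both siRNAs. Among the rises, SS18, PPFIBP1, PIP5K1A, ENPP4 and SNX6 have siH19-1 more than 1 below the control, and among the falls most genes have siH19-2 below the control and siH19-1 near it.

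Proteasome subunits had the largest share of members lower with siH19-2 among the 42 lists. The proteasome degrades ubiquitin-tagged proteins in a barrel-shaped core of PSMA and PSMB subunits, capped by a regulatory particle of PSMC ATPases and PSMD subunits. Of 28 tested subunits, 22 (78.6%) were lower and 0 higher with siH19-2, beside 12.9% and 10.2% of all genes, with a median log2 difference of -0.80 (all genes -0.005). The median was -0.87 when centred and -0.68 when scaled to the control probe rows. Set beside the control, the same subunits had a median of 0.36 with siH19-1 and -0.45 with siH19-2. PSMD3, a scaffold subunit of the cap, read 8.95 and 8.87 with siH19-1, 6.92 and 7.05 with siH19-2 and 8.64 and 8.45 in the control (difference -1.93, SE 0.10, limma adjusted p = 0.00936). The control arrays lay between the siRNAs, nearer to siH19-1.

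In the core, PSMA5 of the outer ring was 1.49 lower and PSMB5, which carries the chymotrypsin-like activity and is the site bound by bortezomib, read 10.12 and 10.14 with siH19-1 against 8.66 and 8.81 with siH19-2 (difference -1.40, SE 0.11, limma adjusted p = 0.00955). PSMB6, the subunit of caspase-like activity, was 1.23 lower and PSMB7, of trypsin-like activity, 0.61 lower. In the cap, the scaffolds PSMD2 and PSMD1 differed by -1.36 and -1.11, the lid subunits PSMD8, PSMD12 and PSMD11 by -1.42, -1.32 and -1.22, the deubiquitinase PSMD14 by -0.72 and the ubiquitin receptor PSMD4 by -0.56. Falls were thus called in both rings of the core, in the ATPases (PSMC1, PSMC2, PSMC3 and PSMC4, between -0.53 and -1.02) and in the lid. The only subunit with a positive difference was PSMD6 at 0.22, which was not called. The 6 subunits not called were PSMA4, PSMA6, PSMB1, PSMB2, PSMC6 and PSMD6.

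Proteasome genes are known to be induced together by NFE2L1 and NFE2L2 through antioxidant response elements. The motif TGACNNNGC, searched on both strands of the 250 bases before each RefSeq gene start, was found in 11% of 27305 promoters, in 12.3% of those of tested genes and in 3 of 23 proteasome promoters available (13%). PSMD3 and PSMD12 were among the 3, and their 200 bases before the start are shown with the match in capitals, at bases -37 to -29 and -165 to -157 (GRCh38.p14, gene strand). A match is a run of letters, not a shown site:
PSMD3, chr17:39980607-39980806, plus strand: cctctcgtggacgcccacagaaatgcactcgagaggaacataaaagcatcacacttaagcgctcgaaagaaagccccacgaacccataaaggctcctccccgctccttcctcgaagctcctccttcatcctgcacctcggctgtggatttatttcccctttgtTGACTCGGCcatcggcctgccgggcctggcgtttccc
PSMD12, chr17:67366578-67366777, minus strand: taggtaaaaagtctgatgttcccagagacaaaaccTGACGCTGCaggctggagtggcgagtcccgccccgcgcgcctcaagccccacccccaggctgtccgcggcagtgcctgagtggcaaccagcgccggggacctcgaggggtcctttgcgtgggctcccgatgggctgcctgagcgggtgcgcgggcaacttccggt

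Genes of the G1/S transition and DNA replication were also lower with siH19-2. These genes license origins, load the MCM helicase and build the replication fork, and many are E2F targets. Of 43 tested, 22 (51.2%) were lower and 1 (2.33%) higher, with a median of -0.50. MCM3, a helicase subunit, read 11.23 and 11.05 with siH19-1, 9.19 and 9.14 with siH19-2 and 10.77 and 10.88 in the control (difference -1.98, SE 0.11, limma adjusted p = 0.00936). MCM5, MCM2, MCM4 and MCM6 were lower by 1.83, 1.18, 0.94 and 0.65, while MCM7, also a helicase subunit, did not pass. CHAF1B, of the chromatin assembly factor that follows the fork, differed by -1.99 (limma adjusted p = 0.0145), although its partner CHAF1A was not called.

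Around the helicase, its activator GINS2 was lower by 1.06, the initiation factor MCM10 by 1.23, the licensing factors ORC1, CDC6 and CDT1 by 1.01, 0.80 and 0.58, and the sliding clamp PCNA by 0.53. In nucleotide supply, TK1 read 10.21 and 10.39 with siH19-1 and 8.87 and 8.86 with siH19-2 (difference -1.44, SE 0.11, limma adjusted p = 0.00955) and the ribonucleotide reductase subunit RRM2 was 1.15 lower. Cyclin E1, encoded by CCNE1, was 1.19 lower. LIG1, the ligase that joins Okazaki fragments, was the sole member called higher, at 0.53 (limma adjusted p = 0.0389). The list's median lay between -0.57 and -0.37 over 3 other scalings. With 1 array left out and the control arrays in the fit, 6 to 13 of its members passed.

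The E2F motif was searched as TTTCCCGC, TTTGGCGC, TTTCGCGC or TTTGCCGC on both strands of the same 250-base promoters. It was present in 2.79% of all promoters, in 4.71% of those of tested genes, in 6.57% of those called lower with siH19-2, in 3.84% of those called higher and in 4.47% of those not called. In the replication list 14 of 37 available promoters had it (37.8%), and among members called lower 8 of 20 (40%). The letters are a description and no binding was measured. Promoters of 4 members called lower are shown because the match lies within 200 bases of the start, with the match in capitals (GRCh38.p14, gene strand):
MCM3, chr6:52284743-52284942, minus strand: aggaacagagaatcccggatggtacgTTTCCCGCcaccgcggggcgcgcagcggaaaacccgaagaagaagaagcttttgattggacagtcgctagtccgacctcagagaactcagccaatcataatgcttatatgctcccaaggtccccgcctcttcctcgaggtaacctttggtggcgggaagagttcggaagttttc
GINS2, chr16:85688955-85689154, minus strand: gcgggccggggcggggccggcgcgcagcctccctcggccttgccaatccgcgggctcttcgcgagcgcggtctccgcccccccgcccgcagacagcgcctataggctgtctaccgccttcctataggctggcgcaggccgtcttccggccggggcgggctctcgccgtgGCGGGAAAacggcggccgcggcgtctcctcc
UHRF1, chr19:4909301-4909500, plus strand: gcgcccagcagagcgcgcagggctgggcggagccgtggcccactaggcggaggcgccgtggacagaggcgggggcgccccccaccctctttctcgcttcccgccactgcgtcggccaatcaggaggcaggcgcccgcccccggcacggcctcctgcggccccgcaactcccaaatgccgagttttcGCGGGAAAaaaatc
DTL, chr1:212035548-212035747, plus strand: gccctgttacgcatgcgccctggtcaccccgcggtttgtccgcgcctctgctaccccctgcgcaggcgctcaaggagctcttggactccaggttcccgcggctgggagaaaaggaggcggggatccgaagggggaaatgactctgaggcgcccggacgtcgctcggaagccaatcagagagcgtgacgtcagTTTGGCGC

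**Figure D4:**
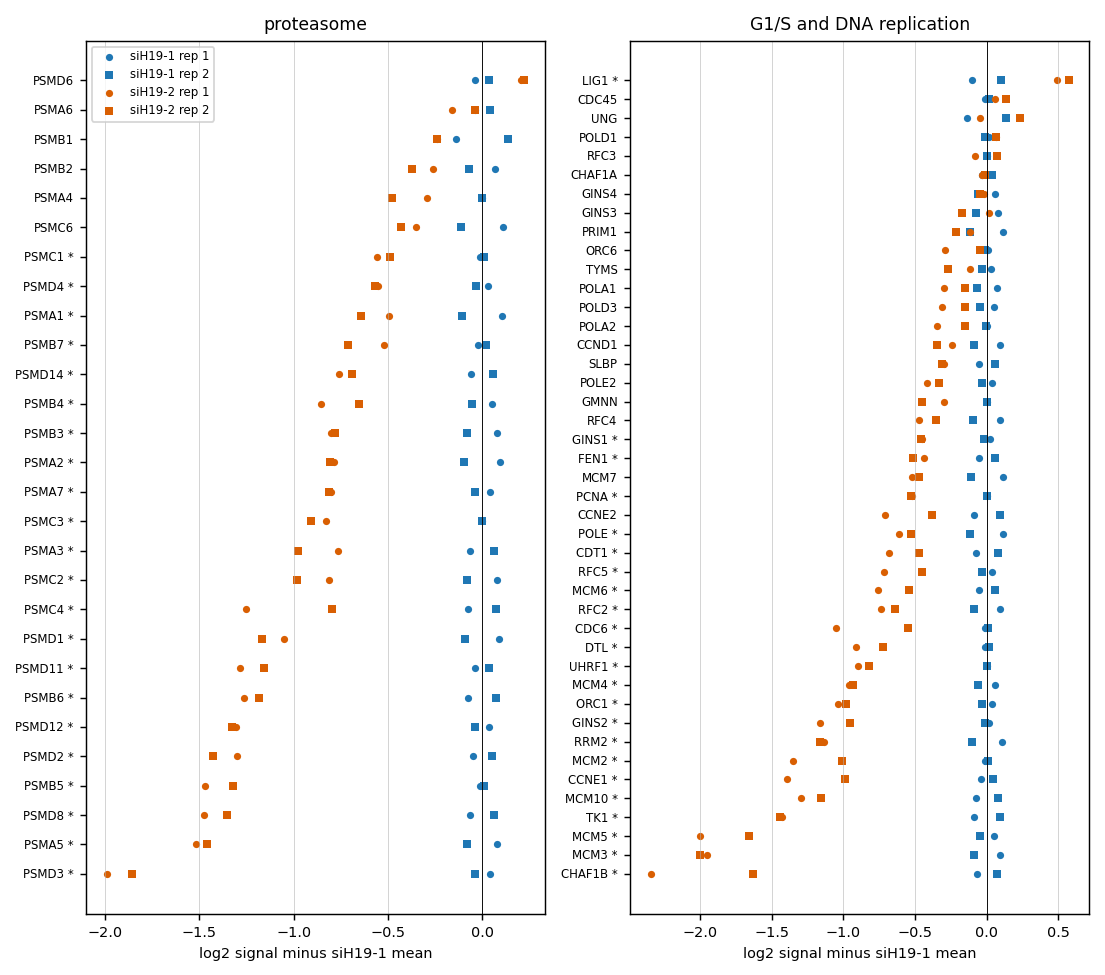
Each row is a proteasome subunit (left) or a gene of G1/S and DNA replication (right), and the x axis gives the log2 signal of each of the 4 arrays minus the siH19-1 mean of that gene. An asterisk marks a limma adjusted p under 0.05. The mean of the orange siH19-2 marks lies left of 0 for 27 of 28 subunits and for 39 of 43 replication genes.

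Upstream of these genes, the RB, E2F and DREAM list had 6 of 19 members lower (31.6%) and 1 higher (5.26%), with a median of -0.08 that turned to 0.04 when scaled to the control probe rows and was -0.23 without siH19-2 replicate 2. Beside MYBL2, E2F7, a repressive E2F, read 9.66 and 9.52 with siH19-1, 7.65 and 7.71 with siH19-2 and 9.61 and 9.52 in the control (difference -1.91, SE 0.10, limma adjusted p = 0.00936). The siH19-1 and control arrays were level and siH19-2 was low. E2F4, the E2F of the DREAM repressor, was 0.98 lower, RB1 0.93 lower, the RB relative RBL1 0.64 lower and the E2F partner TFDP1 0.58 lower. With the replicate block RBL1 and TFDP1 did not pass (limma adjusted p = 0.0588 and 0.0581). MYBL1, a MYB relative, was 0.70 higher (limma adjusted p = 0.0296). E2F8 and TFDP2 stood at -0.55 and 0.44 and did not pass (limma adjusted p = 0.0627 and 0.0795).

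Among mitotic genes 9 of 39 were lower (23.1%) and 2 higher (5.13%), with a median of -0.21. Scaled to the control probe rows 4 were lower and 2 higher, where 1104 of all 11179 genes were lower, and the median was -0.09. It was -0.03 without siH19-2 replicate 2 and -0.39 without siH19-2 replicate 1. MKI67, the proliferation antigen Ki-67, read 14.23 and 14.14 with siH19-1, 13.09 and 13.06 with siH19-2 and 15.07 and 14.85 in the control (difference -1.11, SE 0.10, limma adjusted p = 0.00955). The groups were ordered control, siH19-1, siH19-2 with no overlap. FOXM1, the transcription factor of mitotic genes, followed the same order and differed by -1.30 (limma adjusted p = 0.0112). The kinesin KIF18A and the survivin gene BIRC5 were the 2 members called higher, at 0.66 and 0.50, and in both the siH19-1 arrays were the lowest of the 6. BIRC5 did not pass with the replicate block (limma adjusted p = 0.0532). In DNA repair and checkpoint genes 9 of 33 were lower (27.3%) and 2 higher (6.06%). CLSPN, an adaptor of the checkpoint kinase CHEK1, was 0.98 lower and the helicase BLM 0.78 lower, while CHEK1 itself was 0.79 higher and the nuclease MRE11 0.73 higher. Of 13 G1 cyclins, CDKs and CDK inhibitors only CDK2 was called, at -0.43 (limma adjusted p = 0.0426), and CDK4 at -0.77 was not (0.0716). The CDK2 call was lost with the replicate block (limma adjusted p = 0.055), when scaled to the control probe rows (0.0864) and in each of the 4 leave-outs with the control arrays in the fit. Of 11 tested histone genes of the replication-dependent clusters, H2BC11 was 1.17 lower (limma adjusted p = 0.00955) and H2AC6 1.42 higher (0.0141), in all 3 lower and 1 higher, and in a fit of all 6 arrays 1 lower and 1 higher. Histone genes are near-identical in sequence, so probes may be shared between them.

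Among chaperones of the heat shock response 7 of 17 were lower (41.2%) and 0 higher, with a median of -0.88 (-0.95 to -0.76 over 3 other scalings). The median was -0.57 without siH19-2 replicate 2 and -0.73 without siH19-1 replicate 1, and 0 to 2 members passed in the leave-outs. HSPB1, a small heat shock protein, read 12.62 and 12.39 with siH19-1, 11.14 and 11.10 with siH19-2 and 12.29 and 11.76 in the control (difference -1.39, SE 0.12, limma adjusted p = 0.00955). STIP1, which links HSP70 to HSP90, was 1.46 lower, the HSP70 relative HSPA4 1.01 lower, the co-chaperone BAG3 0.88 lower, HSP90AA1 0.51 lower and HSF1, the transcription factor of this response, 1.08 lower. HSPA1A was 1.59 lower (limma adjusted p = 0.0461), and its probes may also read its near-identical neighbour HSPA1B. In the unfolded protein response 6 of 24 were lower and 1 higher, with a median of -0.21. Scaled to the control probe rows 3 were lower and 3 higher and the median was -0.09, and it was -0.11 without siH19-2 replicate 1. Its disulfide isomerases parted, PDIA3 being 1.48 higher (limma adjusted p = 0.00955) and PDIA4 1.17 lower (0.0098).

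Vesicle traffic between the endoplasmic reticulum and the Golgi held 9 of 32 genes lower (28.1%) and 3 higher (9.38%), with a median of -0.21 (-0.28 to -0.09 over 3 other scalings). COPG1, a coat subunit of COPI vesicles, read 10.54 and 10.48 with siH19-1, 8.99 and 8.98 with siH19-2 and 10.17 and 9.77 in the control (difference -1.52, SE 0.10, limma adjusted p = 0.00936). The control arrays lay between the siRNAs. Other COPI coat subunits called lower were ARCN1 at -1.35 and COPB2 at -0.96, and the cargo receptors SURF4 and TMED10 differed by -1.76 and -0.49. The COPII coat genes SEC24D and SEC24C were 0.85 and 0.68 lower. The 3 called higher were SAR1A, the GTPase that starts COPII coats, at 1.17, the GTPase ARF4 at 0.75 and the golgin GOLGA2 at 0.68.

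In redox metabolism, 11 of 21 NRF2 and redox genes were lower (52.4%) and 0 higher, with a median of -0.43 (-0.60 to -0.31 over 3 other scalings). PGD, of the pentose phosphate pathway that supplies NADPH, read 10.66 and 10.44 with siH19-1, 8.93 and 8.80 with siH19-2 and 11.30 and 11.02 in the control (difference -1.68, SE 0.13, limma adjusted p = 0.00955). In this gene siH19-1 lay between the control and siH19-2. TKT of the same pathway was 1.01 lower, the peroxiredoxins PRDX2 and PRDX1 1.00 and 0.61 lower, thioredoxin (TXN) 0.94 lower, the lipid peroxidase GPX4 0.97 lower and NQO1, a common NRF2 readout, 0.67 lower. GCLM, a subunit of the enzyme that starts glutathione synthesis, and HMOX1, which degrades heme, were lower by 1.16 and 1.14. Against the control, GCLM was 1.64 higher with siH19-1 and 0.48 higher with siH19-2, and HMOX1 0.83 higher and 0.30 lower. The antioxidant motif given above was in 5 of 17 available promoters of this list (29.4%), beside 12.3% of those of tested genes. It was also in 8 of 37 promoters of the replication list (21.6%), so a high share was not particular to this list.

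In the hypoxia and glycolysis list 12 of 30 were lower (40%) and 2 higher (6.67%), with a median of -0.30 (-0.38 to -0.18 over 3 other scalings). HIF1A, the oxygen-regulated transcription factor, read 13.65 and 13.37 with siH19-1, 11.76 and 11.83 with siH19-2 and 13.72 and 13.49 in the control (difference -1.71, SE 0.13, limma adjusted p = 0.00955). The siH19-1 and control arrays overlapped. The glycolytic enzymes GPI, PGAM1, PFKP and TPI1 were lower by 1.14, 0.92, 0.72 and 0.69. Hexokinases went apart, HK1 being 0.61 lower and HK2 0.59 higher, and so did the mitophagy receptors BNIP3, 0.71 lower, and BNIP3L, 0.73 higher.

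Mitochondrial and lipid enzymes were called lower in smaller numbers. The citrate cycle had 6 of 18 lower (33.3%) and 0 higher, with a median of -0.25, which was -0.39 without siH19-2 replicate 2. Beside IDH3A, citrate synthase (CS) read 11.17 and 11.24 with siH19-1, 9.15 and 9.24 with siH19-2 and 11.53 and 11.32 in the control (difference -2.01, SE 0.10, limma adjusted p = 0.00936), and DLST, of the oxoglutarate dehydrogenase complex, was 1.64 lower. In both, siH19-2 was low and siH19-1 was close to the control. Respiratory chain genes had 6 of 37 lower (16.2%) and 0 higher, a share near the background, and their median of -0.11 turned to 0.01 when scaled to the control probe rows. NDUFAB1, the mitochondrial acyl carrier protein, differed by -0.69 between siRNAs (limma adjusted p = 0.016), and both were far below the control, at -2.47 with siH19-1 and -3.16 with siH19-2. Of 22 fatty acid and glycerolipid genes 5 were lower and 1 higher. ACLY, which makes cytosolic acetyl-CoA from citrate, read 13.25 and 13.18 with siH19-1, 11.73 and 11.58 with siH19-2 and 12.17 and 12.02 in the control (difference -1.56, SE 0.11, limma adjusted p = 0.00936). Fatty acid synthase (FASN) was 0.81 lower. Of 22 genes of cholesterol synthesis and uptake only SREBF2, the transcription factor of the pathway, was called higher, at 0.99, and only MVD, an enzyme of it, lower, at -0.61.

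Genes of the ATF4 and amino acid response were called in the opposite direction, with 6 of 23 higher (26.1%) and 0 lower and a median of 0.35 (0.28 to 0.47 over 3 other scalings). The median was 0.17 without siH19-2 replicate 2 and 0.61 without siH19-2 replicate 1, with 0 to 5 members called in the leave-outs and 3 with the replicate block. PHGDH, the entry enzyme of serine synthesis, read 6.44 and 6.39 with siH19-1, 7.34 and 7.54 with siH19-2 and 6.80 and 6.66 in the control (difference 1.02, SE 0.11, limma adjusted p = 0.0111). The control lay between the siRNAs. Asparagine synthetase (ASNS) was 1.20 higher, the amino acid transporters SLC1A5 and SLC38A2 1.03 and 0.99 higher, STC2, a secreted glycoprotein, 1.00 higher and ATF4 itself 0.72 higher (limma adjusted p = 0.0456). Aminoacyl-tRNA synthetases were mixed, with MARS1 1.21 and TARS1 0.63 higher and RARS1 1.82, KARS1 0.97 and FARSA 0.58 lower. RARS1 read 12.77 and 12.90 with siH19-1 and 11.04 and 10.98 with siH19-2 (limma adjusted p = 0.00936). Of 26 ribosomal protein genes 3 were higher (RPS19 by 0.93, RPS3 by 0.77 and RPL37 by 0.47) and 0 lower, a share near the background. In ribosome biogenesis 6 of 30 were lower and 1 higher, with the snoRNP protein NOP58 1.13 lower and RRN3, an initiation factor of RNA polymerase I, 1.06 lower.

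**Figure D5:**
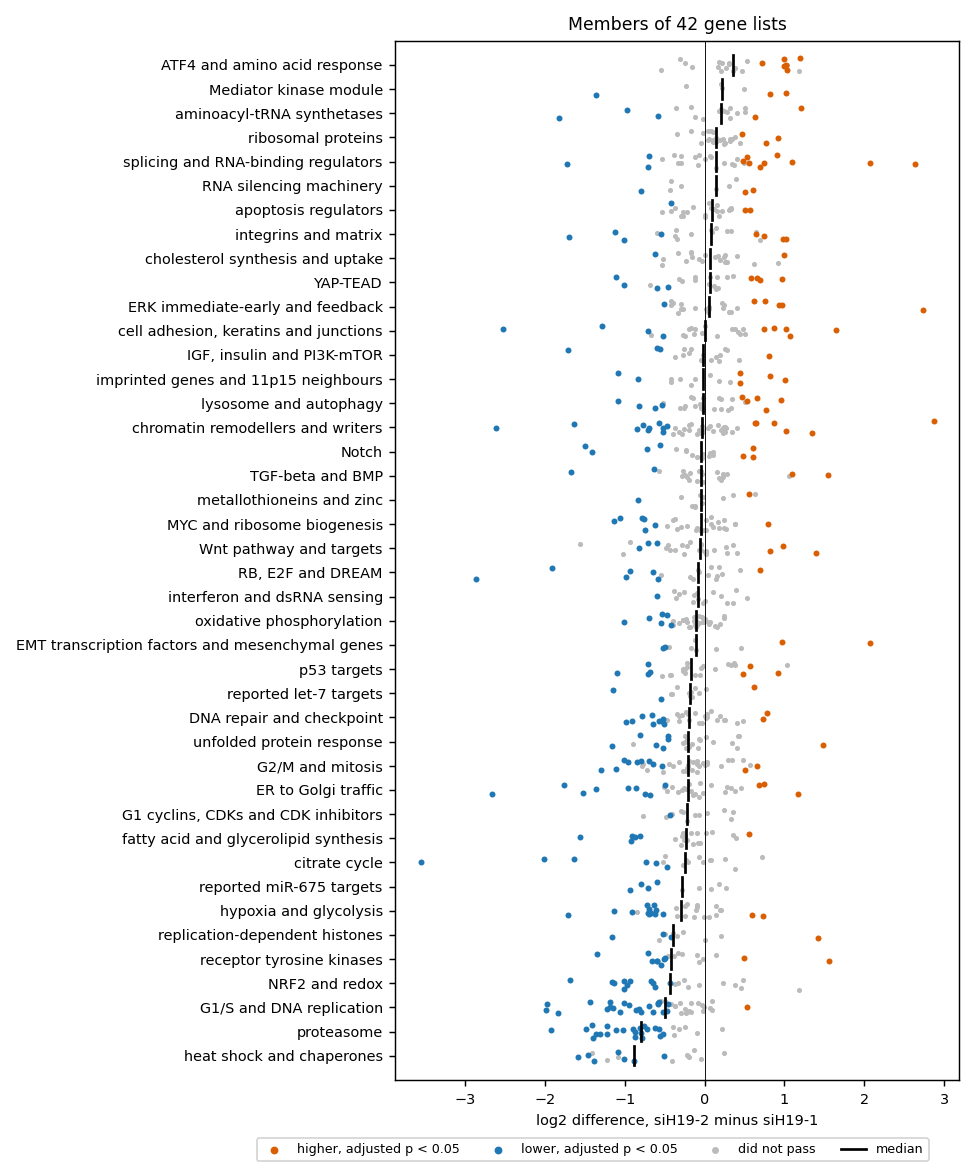
Each point is a tested member of a list, placed by its log2 difference, siH19-2 minus siH19-1, with lists ordered by their median (black bar). Orange points were higher and blue lower with siH19-2 at a limma adjusted p under 0.05, and grey points did not pass. Medians run from -0.88 for heat shock and chaperones to 0.35 for the ATF4 and amino acid response, and most lists hold members on both sides.

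Among receptor tyrosine kinases 8 of 18 were lower (44.4%) and 2 higher (11.1%), with a median of -0.42 (-0.49 to -0.30 over 3 other scalings). With the replicate block 5 were lower and 1 higher. EPHA2, an ephrin receptor, read 7.64 and 7.68 with siH19-1, 9.24 and 9.20 with siH19-2 and 8.70 and 8.05 in the control (difference 1.56, SE 0.09, limma adjusted p = 0.00936). EGFR went the other way, with 8.63 and 8.37 with siH19-1, 7.19 and 7.11 with siH19-2 and 8.67 and 8.30 in the control (difference -1.35, SE 0.13, limma adjusted p = 0.0098). The siH19-2 arrays were the highest of all for EPHA2 and the lowest of all for EGFR. MET, DDR1 and IGF1R were lower by 0.71, 0.60 and 0.60. Downstream in the insulin pathway MTOR, the kinase of both mTOR complexes, read 9.70 and 9.58 with siH19-1, 7.87 and 7.99 with siH19-2 and 8.91 and 8.75 in the control (difference -1.71, SE 0.11, limma adjusted p = 0.00936). RICTOR, which defines mTOR complex 2, was 0.81 higher and AKT1 0.56 lower. That list had 3 of 19 lower and 1 higher. In the ERK immediate-early and feedback list, led by NR4A2, 5 of 24 were higher (20.8%) and 1 lower. The others called higher were CCN1, JUND, SPRED1 and NR4A1, by 0.97, 0.93, 0.76 and 0.61.

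Developmental pathways were divided, and the medians of the Wnt, Notch, TGF-beta and YAP-TEAD lists lay between -0.06 and 0.07 and each changed sign under at least 1 other scaling. In the Wnt list 3 of 30 were higher and 3 lower. The co-receptor LRP6 read 8.42 and 8.81 with siH19-1, 10.04 and 9.99 with siH19-2 and 9.92 and 9.83 in the control (difference 1.40, SE 0.16, limma adjusted p = 0.0119), so that siH19-1 was the low group. TCF7L2, the Wnt transcription factor, was 0.98 higher and LRP5 0.82 higher, while beta-catenin (CTNNB1) was 0.60 and its target AXIN2 0.70 lower. In the Notch list NOTCH2 read 8.92 and 8.83 with siH19-1, 7.29 and 7.47 with siH19-2 and 9.06 and 8.74 in the control (difference -1.50, SE 0.11, limma adjusted p = 0.00955). ADAM10, the protease that cuts Notch receptors, was 1.41 lower, NOTCH1 0.72 lower and NOTCH3 0.60 higher. In the TGF-beta list SMAD3 read 8.30 and 8.51 with siH19-1 and 9.79 and 10.11 with siH19-2 (difference 1.54, SE 0.16, limma adjusted p = 0.0105), and the ligand TGFB1 was 1.68 lower. The ubiquitin ligase SMURF2 was 1.10 higher and the receptor BMPR2 0.64 lower. Among regulators of YAP, NF2 and MOB1A were 1.11 and 1.01 lower and STK4 0.69 higher.

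Cell junction genes held large differences of both signs, with 5 of 25 higher (20%) and 4 lower (16%). E-cadherin (CDH1) read 8.25 and 8.24 with siH19-1, 9.92 and 9.87 with siH19-2 and 6.62 and 7.0 in the control (difference 1.65, SE 0.09, limma adjusted p = 0.00936). The order was control, siH19-1, siH19-2 without overlap. The tight junction genes CLDN7, OCLN and TJP3 were higher by 1.07, 1.02 and 0.87, and the desmosomal plaque gene JUP by 0.75. Against that stood the desmosomal cadherin DSG2, 2.52 lower, with 12.38 and 12.31 with siH19-1, 9.81 and 9.83 with siH19-2 and 12.40 and 12.12 in the control, and the tight junction scaffold TJP1, 1.28 lower. Of the EMT list, ESRP1, the epithelial splicing factor, read 10.23 and 10.01 with siH19-1, 12.41 and 11.97 with siH19-2 and 10.62 and 10.46 in the control (difference 2.07, SE 0.19, limma adjusted p = 0.00955). GRHL2, an epithelial transcription factor, was 0.96 higher, ZEB1, a repressor of CDH1, 0.49 lower, and ESRP2 0.52 lower. ZEB1 and ESRP2 did not pass with the replicate block (limma adjusted p = 0.0618 and 0.0586) or when scaled to the control probe rows (0.0806 and 0.0516). In integrins and matrix, ITGAV was 1.02 and LAMB2 0.98 higher, and ITGB4, of the hemidesmosome, 1.70 and LAMC1 1.12 lower, with 4 of 20 in each direction.

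Splicing and RNA-binding regulators were more often higher, with 9 of 29 (31%) against 3 lower (10.3%) and a median of 0.14 (0.01 to 0.26 over 3 other scalings, and 0.23 without siH19-2 replicate 2). Beside PTBP2 and ESRP1, RBFOX2 was 1.09 higher, TIA1 0.91, the kinase CLK1 0.74 and SRSF5 0.70. ELAVL1, the stabilising RNA-binding protein HuR, read 10.42 and 10.35 with siH19-1, 8.47 and 8.86 with siH19-2 and 10.77 and 10.47 in the control (difference -1.72, SE 0.16, limma adjusted p = 0.0098). Only the siH19-2 arrays were low. Among chromatin regulators 10 of 43 were lower (23.3%) and 6 higher (14%). In the SWI/SNF complex SS18 and SMARCB1 were higher by 2.87 and 1.34 and SMARCD1 and SMARCE1 lower by 1.64 and 0.69. SMARCB1, like SS18, was far below the control with siH19-1, by 2.08, and 0.74 below with siH19-2. KMT2A, a histone methyltransferase, was 1.01 higher, and JARID2, of the Polycomb complex, 0.85 lower.

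The Mediator kinase module, a detachable part of the Mediator complex of transcription, had all 7 members tested. CDK8 read 9.34 and 9.24 with siH19-1, 7.93 and 7.93 with siH19-2 and 10.21 and 9.79 in the control (difference -1.36, SE 0.10, limma adjusted p = 0.00936). Its paralog CDK19 went up, with 7.80 and 7.61 with siH19-1, 8.59 and 8.45 with siH19-2 and 8.54 and 8.32 in the control (difference 0.81, SE 0.12, limma adjusted p = 0.0178). The siH19-2 arrays were lowest for CDK8, while for CDK19 it was siH19-1 that stood below the other groups. MED13, which anchors the module, was 1.02 higher (limma adjusted p = 0.00955), and cyclin C (CCNC), the partner of both kinases, stood at 0.49 and did not pass (0.0519).

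Of lists tied to H19, reported targets of miR-675 had 4 of 9 lower (44.4%) and 0 higher, with a median of -0.28 (-0.35 to -0.16 over 3 other scalings). The 4 were RB1 at -0.93, the licensing factor CDC6 at -0.80, the repair gene DDB2 at -0.71 and the receptor IGF1R at -0.60. RB1 read 11.24 and 10.93 with siH19-1 and 10.32 and 9.99 with siH19-2, against 11.31 and 10.97 in the control (SE 0.18, limma adjusted p = 0.0299). RB1 and CDC6 also belong to the cell cycle lists above. CDC6 did not pass with the replicate block (limma adjusted p = 0.0675) or when scaled to the control probe rows (0.0518), and 0 to 1 members of the list passed in the leave-outs. Reported let-7 targets had 2 of 13 lower and 1 higher. IGF2BP3 was 0.61 higher and IGF2BP2 0.55 lower, the latter not passing in a fit of all 6 arrays (limma adjusted p = 0.0558). Among imprinted genes and neighbours of H19 on chromosome 11, 4 of 14 were higher (ZDBF2 by 1.01, SGCE by 0.82, PEG10 and PLAGL1 each by 0.44) and 2 lower (the lysosomal protease CTSD by 1.09 and PHLDA2 by 0.83). Of 9 genes of RNA silencing TNRC6C and PRKRA were 0.60 and 0.51 higher and TNRC6B 0.80 lower, with TNRC6C not passing under the replicate block (limma adjusted p = 0.0504). In the list of interferon and double-stranded RNA sensing, 17 of 39 genes were tested and only TLR3 was called, at -0.59 (limma adjusted p = 0.0243), with 6.02 and 5.96 with siH19-1, 5.46 and 5.34 with siH19-2 and 5.43 and 5.26 in the control.

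Remaining lists had calls in both directions at shares near the background. Of 26 p53 targets 3 were higher and 4 lower. RRM2B, the p53-induced ribonucleotide reductase subunit, read 10.82 and 10.84 with siH19-1, 9.74 and 9.73 with siH19-2 and 9.52 and 9.57 in the control (difference -1.10, SE 0.09, limma adjusted p = 0.00955), so that siH19-1 was the high group. ZMAT3 was 0.92 and the death receptor TNFRSF10B 0.56 higher, and BAX, at -0.53, did not pass (limma adjusted p = 0.0677). TNFRSF10B did not pass in a fit of all 6 arrays (limma adjusted p = 0.0651) or with the replicate block (0.0634), nor did ZMAT3 with the block (0.0667), which left 1 and 0 targets higher in those fits. Among 26 apoptosis regulators 2 were higher and 1, BID at -0.42, was lower, a call lost with the replicate block (limma adjusted p = 0.0624). In lysosome and autophagy genes 5 of 31 were higher and 4 lower, among them WIPI2, of the early autophagosome, 0.95 higher and BECN1 0.82 lower. Of 12 metallothionein and zinc genes MT1F was 0.56 higher and the zinc exporter SLC30A1 0.83 lower. MT1F did not pass in a fit of all 6 arrays (limma adjusted p = 0.293) and SLC30A1 did not pass with the replicate block (0.0842). Metallothionein genes are close in sequence and their probes may be shared.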

How the data were processed

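Gene expression was measured on 1 whole-transcript array per culture, and the deposited values are log2 signals. Per the submitters' processing notes, these come from Affymetrix Expression Console with RMA (background correction, normalization between arrays and probe summaries). The version, the genome build and other settings are not given in the sources used here. RMA brings arrays to a common distribution, so a shift of most transcripts in a single direction would be removed. Of 70523 rows 67528 were transcript clusters. The other 2995, control probe sets among them but mostly exon probe sets and numbered rows, are called control probe rows here. Their mean on each array served as an alternative scaling.

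Groups and replicate numbers came from the sample titles. Differences were fitted by limma's lmFit and eBayes with trend (limma 3.58.1, R 4.3.3) on the 4 siH19 arrays, with 2 residual and 2.69 prior degrees of freedom. Each p is two-sided, with Benjamini-Hochberg adjustment over 24721 clusters and a threshold of 0.05. The fit was also run on simulated independent normal values with planted changes of 2 on the log2 scale. The median called difference was 0.745 in size, so that run does not show how sound calls of such a size are. The p-values measure the spread between 2 replicates a group. Each siRNA was set against the control in a limma fit of all 6 arrays.

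Symbols came from the platform annotation, updated through RefSeq. Of the tested clusters 11715 had 1 symbol, 834 several and 12172 none, and 1250 held the same values as another cluster. A gene with several clusters was represented by the brightest. The comparison, gene lists and naming rule were chosen with earlier results of these data known. The rule named H19, the 15 largest called differences in each direction (1 symbol, no overlap, no uncharacterised or small RNA gene), up to 4 members of smallest p per list, and all members of the RB and Mediator kinase lists with an unadjusted p under 0.05. Further list members given in the text, those called among them, were chosen after their values were seen, and the promoters shown were chosen for their match. Alternatives changed the arrays fitted, filter, trend, scaling, replicate block and arrays left out.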

Additional observations from a re-analysis of the deposited data

How the results depend on the processing

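No called cluster changed sign under any alternative run, but this was largely fixed in advance. Every called cluster had no overlap between the groups, so leaving out an array could not turn its sign. Changes of fit, trend, filter or block leave the difference itself as it was. The smallest called difference was 0.375 in size, so the small shifts of the other scalings could hardly turn it. The 4731 called clusters became 4495 in a fit of all 6 arrays, 4714 without the intensity trend, 5101 of 17391 with a filter at log2 6, 4836 with the filter applied to the 4 siH19 arrays, 4791 after renewed quantile normalization, 4836 after centring, 5976 scaled to the control probe rows and 4719 with identical clusters taken once, an alternative added after seeing the data. Without a filter 2118 of 67528 were called, since the adjustment then ran over more clusters. Leaving out 1 of the 4 arrays gave 0 calls in each case, with 1 residual degree of freedom. With the control arrays kept in that fit, also added after seeing the data, where the lone array is assumed to vary like the other groups, the counts were 756 and 517 without siH19-1 replicates 1 and 2 and 574 and 1319 without siH19-2 replicates 1 and 2. Of 171 named genes that passed, 57 passed in all 4 of these leave-outs, 47 in some and 67 in none. With the replicate block 4019 clusters were called. The deviations of same-numbered arrays correlated at 0.20 in the only 2 pairs, so the numbers are not shown to pair the arrays. The H19 difference of 0.04 turned to -0.011, -0.03 and -0.005 after quantile normalization, after centring and without siH19-1 replicate 1, with leave-outs from -0.005 to 0.085, and the cause was not tested. Of 42 list medians, 24 kept their sign under the 3 other scalings and 18 did not. The number of arrays limits the precision.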

Other observations

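Of all tested clusters 10.3% were higher and 8.85% lower with siH19-2. Noncoding classes of RNA had smaller shares called lower, while their shares called higher lay on both sides of 10.3%. Of 384 clusters annotated to long noncoding RNA genes, 47 (12.2%) were higher and 5 (1.3%) lower with siH19-2, and of 155 snoRNA clusters 17 (11%) were higher and 2 (1.29%) lower. Small nuclear RNA clusters had 4 of 21 higher (19%) and 0 lower. Transcribed pseudogenes had 36 of 316 higher (11.4%) and 12 lower (3.8%), and other pseudogenes 35 of 523 higher (6.69%) and 20 lower (3.82%). Protein-coding genes had 1022 of 9931 clusters higher (10.3%) and 1468 lower (14.8%). Clusters with no symbol had 1258 of 12172 higher (10.3%) and 588 lower (4.83%). The medians were 0.14 for long noncoding, 0.23 for snoRNA, -0.03 for protein-coding genes and 0.12 for clusters with no symbol. Scaled to the control probe rows, the protein-coding median turned to 0.09, while those of the long noncoding and snoRNA genes stayed above 0 under each of 3 other scalings. The called share also rose with signal, from 6.05% in the dimmest to 30.5% in the brightest of 4 equal groups by mean signal, so classes of unlike brightness are not compared on equal terms.

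Of 323 clusters annotated to microRNA genes 16 were higher (4.95%) and 6 lower (1.86%), both below the shares of all tested clusters. The MIR181B1 cluster, chosen after its values were seen, read 6.81 and 7.32 with siH19-1, 9.13 and 9.24 with siH19-2 and 7.45 and 7.19 in the control arrays (difference 2.12, SE 0.19, limma adjusted p = 0.00955). Such a cluster reads RNA from the gene's locus and is no measure of the mature microRNA. RefSeq gives a 5p and a 3p mature sequence for this gene. The 5p sequence is shown with its seed, bases 2 to 8, in capitals (GRCh38.p14):
hsa-miR-181b-5p, chr1:198858925-198858947, minus strand: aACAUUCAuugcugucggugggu

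By chromosome, the called share of clusters with a single gene symbol lay between 15.6% on chromosome 22 and 27.5% on chromosome 12.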
